A study of Mus musculus with 10 samples.

Results

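The nuclear-encoded subunits of oxidative phosphorylation were followed in the hippocampus of APP/PS1 mice that received AAV8-irisin or AAV8-GFP. The set holds the genes whose symbols begin like those of the NADH dehydrogenase (Nduf), succinate dehydrogenase (Sdh), cytochrome bc1 (Uqcr), cytochrome c oxidase (Cox4 to Cox8) and ATP synthase (Atp5) subunits. Of 85 such symbols among the 31510 genes of the deposited table, Ndufb1-ps was left out for its suffix and 3 genes were left out because fewer than 5 of the 10 libraries reached a normalised count of 10. These 3 were Cox8c, listed at 0 in every library, and Cox8b and Cox7b2, which each reached 10 in 1 library. The other 81 genes were 35 of complex I, 4 of complex II, 8 of complex III, 17 of complex IV and 17 of ATP synthase. Ndufa4 and Ndufa4l2 were placed in complex IV, where the Ndufa4 protein is found, and Cox7a2l, an assembly factor of respiratory supercomplexes, was kept by its name.

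Complexes I to IV carry electrons from NADH and succinate to oxygen, and complexes I, III and IV pump protons across the inner mitochondrial membrane as they do so. ATP synthase lets the protons flow back and makes ATP, on which neurons depend to restore ion gradients after firing. Most subunits are encoded in the nucleus and join a few core subunits encoded in the mitochondrial genome, so that a complex draws on both genomes. All complex II subunits are nuclear.

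Irisin is the secreted fragment of the muscle protein encoded by Fndc5. The treated mice were 5 male APP/PS1 mice given a tail vein injection of AAV8-irisin, a FLAG-tagged form, at 8 months of age, and the controls were 5 male APP/PS1 mice given AAV8-GFP by the same route at the same age. The design text names the liver as the tissue meant to make the protein, and the hippocampi were taken 2 months after injection. Both groups carried the APP and presenilin transgenes, which in this line are under the mouse prion protein promoter, and both received a vector. Hippocampi of mice without transgenes or without vector were not analysed here.

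Values are normalised counts of poly(A)-selected RNA from whole microdissected hippocampus. The libraries summed to 35284321 to 36623029 normalised counts, with an estimated depth of 30705458 to 41508590 reads, and the 81 genes took 0.83% to 0.931% of a library. All 10 markers of hippocampal fields were detected in both groups, among them Prox1 of dentate granule cells, with 3417 to 4505 normalised counts in AAV8-irisin mice and 3649 to 4428 in AAV8-GFP mice. In whole tissue, fewer cells of a type and less RNA per cell cannot be told apart.

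No oxidative phosphorylation subunit passed the test for a difference between AAV8-irisin and AAV8-GFP. Of the 81 genes, 58 had a lower mean and 23 a higher mean in AAV8-irisin mice, and every difference was small. The 81 differences, taken as AAV8-irisin minus AAV8-GFP of log2(normalised count + 1), lay between -0.127 for Ndufv3 and 0.2162 for Cox7a1. Their median was -0.0285, against 0.001 over the 17556 genes tested. A lower mean in AAV8-irisin was found for 71.6% of the subunits and for 49.5% of all genes tested.

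The test was limma across all genes tested, with the Benjamini-Hochberg method and 0.05 as the threshold. It called 0 of the 81 subunits, with a lowest adjusted p of 0.942, and 0 of all genes tested, which is 0.0%. At an unadjusted limma p under 0.05, 3 subunits (3.7%) were lower in AAV8-irisin, where 2.21% of all genes were, and 0 were higher, where 2.28% of all genes were. The 5 AAV8-irisin values all lay below the 5 AAV8-GFP values for 2 subunits (2.47%), against 0.422% of all genes, and all above them for 0, against 0.382% of all genes.

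The subunits were measured with less scatter than most genes. Their median coefficient of variation within a group was 4.93%, against 8.42% for all genes tested, and the median standard error of the log2 difference was 0.046, against 0.0752. This comparison was not matched for expression level. Within the set the median coefficient of variation was 4.71% for the 73 subunits averaging at least 1000 normalised counts, and 17.1% for the 8 below. For the 73 subunits with a mean of at least 1000 normalised counts, the 95% intervals of the log2 difference stayed between -0.2491 and 0.1367. For 76 of the 81 the interval lay within 0.3 on either side of 0, which is a change of 1.23-fold. The other 5 were Cox4i2, Cox6a2, Cox7a1, Ndufa4l2 and Atp5g2, for which larger differences were within the interval. All 5 had a mean under 1000 normalised counts.

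**Figure D1:**
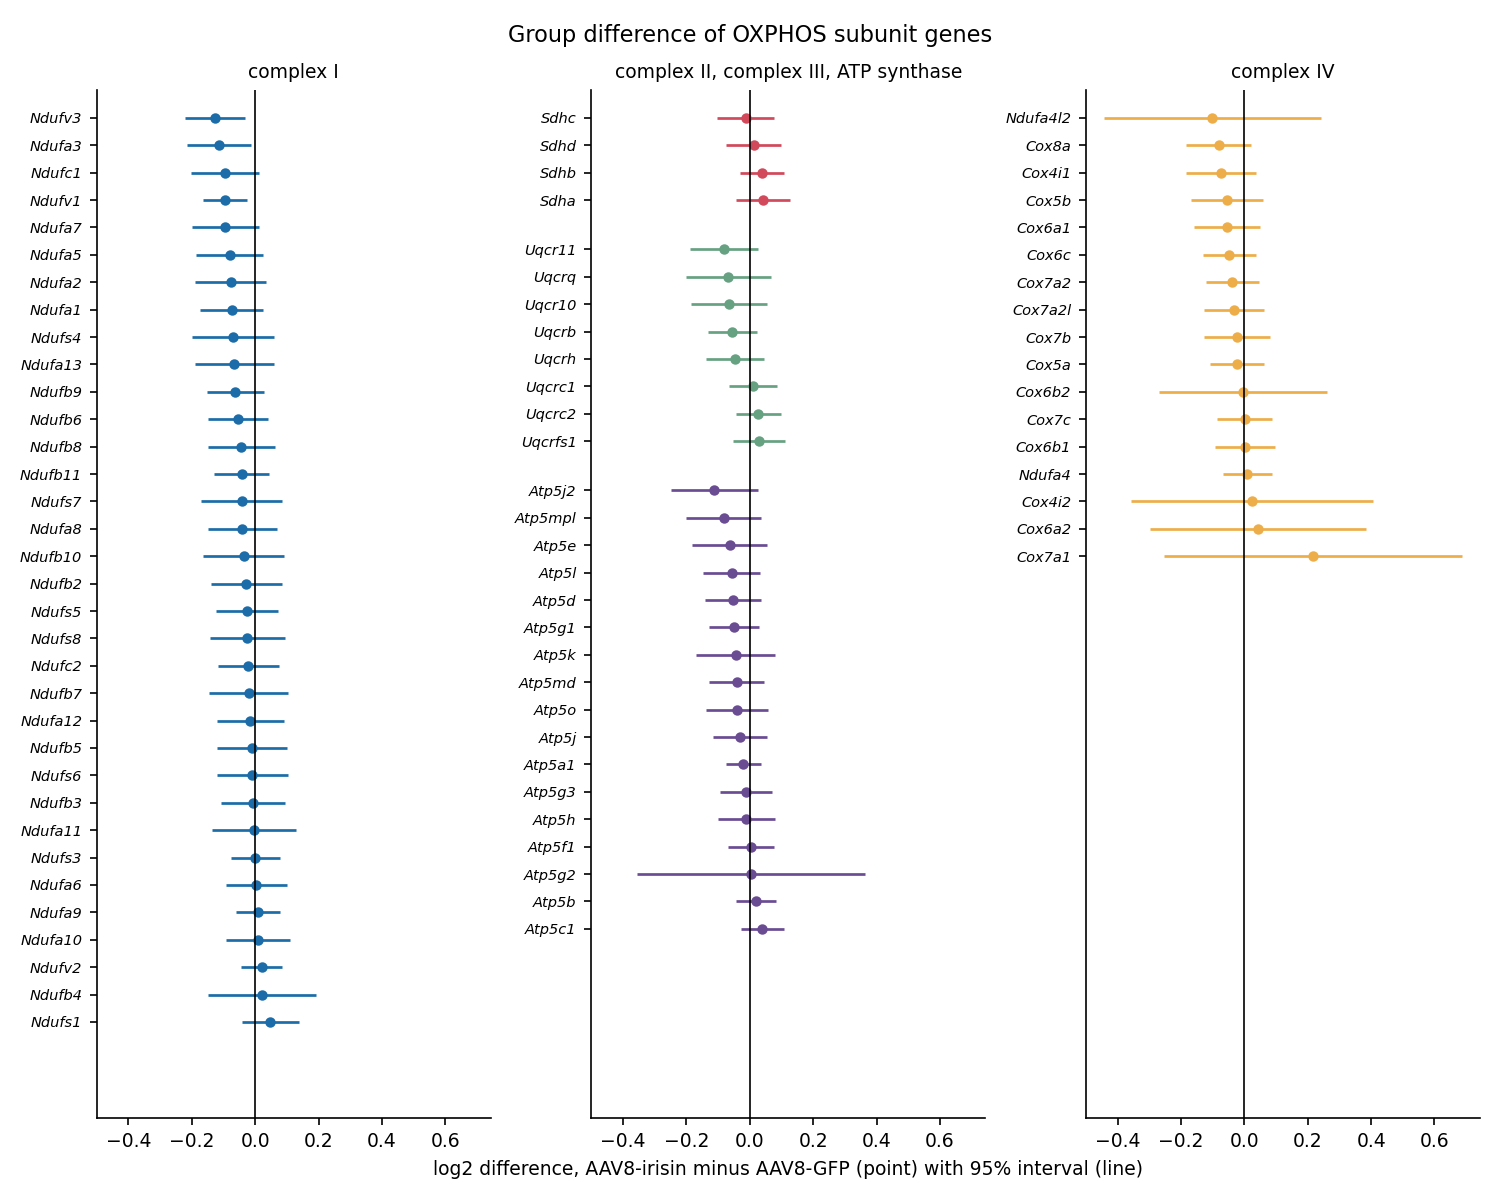
Log2 difference, AAV8-irisin minus AAV8-GFP, of 80 of the 81 subunit genes (points) with its 95% interval from limma (lines), in 3 panels by complex. Most points lie slightly left of 0, and the intervals of 3 complex I genes (Ndufv1, Ndufv3 and Ndufa3) do not reach 0 before adjustment.

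The subunits varied together from mouse to mouse. Each gene was set against its own mean over the 10 mice on the log2 scale. Averaged over the 81 subunits, the deviation was -0.0384, 0.0282, 0.0458, -0.0603 and -0.0442 in AAV8-irisin mice 1 to 5. It was 0.1085, -0.0282, 0.0011, -0.0003 and -0.0122 in AAV8-GFP mice 1 to 5. AAV8-irisin mice 4, 1 and 5 and AAV8-GFP mouse 2 were low, AAV8-irisin mice 2 and 3 were high, and AAV8-GFP mouse 1 was highest of all, so the groups overlapped.

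AAV8-irisin mouse 4 was above the 10-mouse mean in 10 of the 81 subunits and held the lowest value in 27 of them. AAV8-GFP mouse 1 was above the mean in 71 and held the highest value in 48 of them (59.3%), against 19.7% of all genes tested. Without AAV8-GFP mouse 1, 45 subunits had a lower mean in AAV8-irisin and 36 a higher one, and the median difference was -0.0037. The sign of 17 subunits turned when that mouse was left out.

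**Figure D2:**
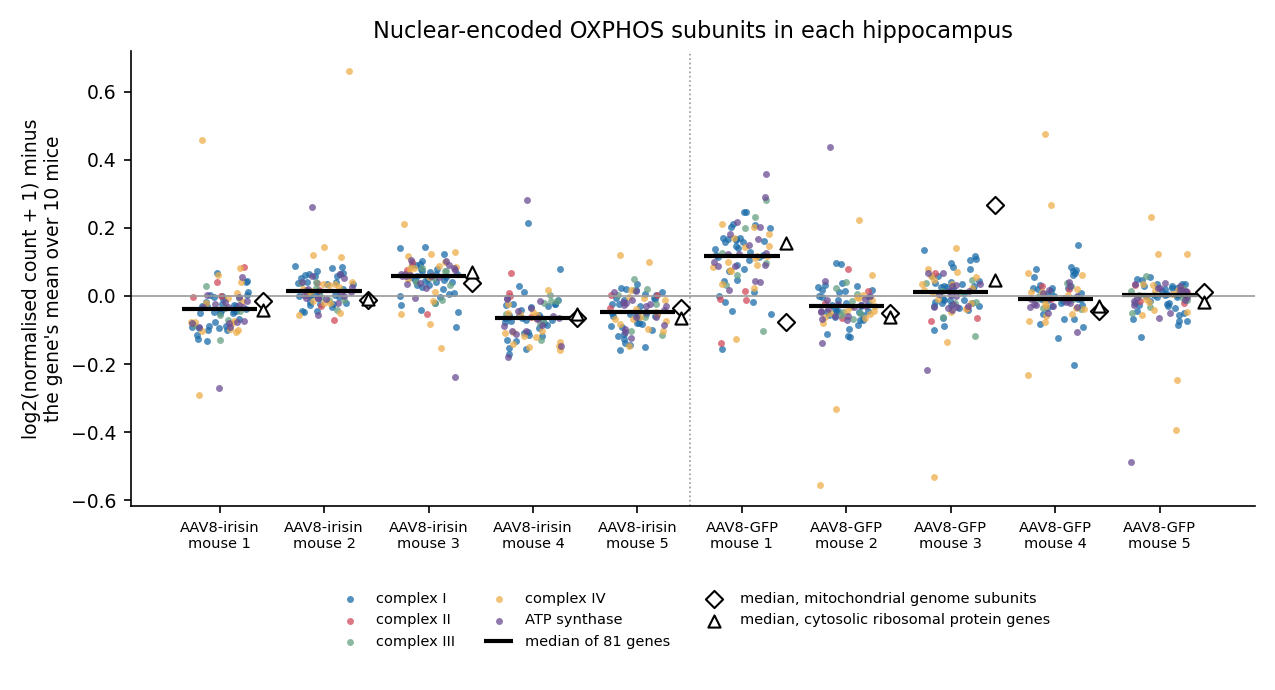
Deviation of each of the 81 subunit genes from its own 10-mouse mean, in log2(normalised count + 1), for the 5 AAV8-irisin mice (left) and the 5 AAV8-GFP mice (right). Coloured points are genes by complex, black bars their median, diamonds the median of 13 mitochondrially encoded subunits and triangles that of 80 cytosolic ribosomal protein genes. The bar of AAV8-GFP mouse 1 (0.1162) is the highest, and its diamond is below 0.

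Complex I takes electrons from NADH. Its nuclear core subunits carry the flavin and iron-sulfur clusters, and its accessory subunits surround and stabilise the core. The 7 nuclear core genes were split, 4 with lower and 3 with higher means in AAV8-irisin, and the median of their log2 differences was -0.0011. Among the other 28 complex I genes, lower means were found for 24, and their median was -0.0385. The contrast between core and other genes was not tested, and genes of both parts turned sign without AAV8-GFP mouse 1. Over all 35 genes the median was -0.0285, with 28 lower, and it was -0.0591 without AAV8-irisin mouse 3 and -0.0037 without AAV8-GFP mouse 1. The accessory genes with positive values were Ndufa6, Ndufa9, Ndufa10 and Ndufb4, at 0.0224 or less.

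The flavoprotein tip where NADH is oxidised is formed by the products of Ndufv1, Ndufv2 and Ndufv3. Ndufv1, the subunit that binds the flavin and NADH, lies on the minus strand at chr19:4007384-4012806 (mm10). It had 4271, 4569, 4500, 4404 and 4413 normalised counts in AAV8-irisin mice 1 to 5. It had 4719, 4890, 4674, 4795 and 4592 normalised counts in AAV8-GFP mice 1 to 5. Every AAV8-irisin mouse was below every AAV8-GFP mouse, the nearest being AAV8-irisin mouse 2 and AAV8-GFP mouse 5. The log2 difference was -0.0954 ± 0.0318 (SE), with an unadjusted p of 0.00948 and an adjusted p of 0.942 in limma. It was -0.0964 without AAV8-GFP mouse 1.

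Ndufv3, the accessory subunit of the tip, lies on the plus strand at chr17:31520115-31531331. It had 1479, 1526, 1528, 1507 and 1488 normalised counts in AAV8-irisin mice. It had 1764, 1588, 1729, 1541 and 1611 normalised counts in AAV8-GFP mice. The groups did not overlap here either, but AAV8-irisin mouse 3 and AAV8-GFP mouse 4 were close. The AAV8-irisin values spread less, with means of 1506 ± 22.3 in AAV8-irisin and 1647 ± 95.5 in AAV8-GFP (SD, n = 5 each). The log2 difference was -0.127 ± 0.0442 (SE), with an unadjusted p of 0.0122 and an adjusted p of 0.942 in limma, and it was -0.1017 without AAV8-GFP mouse 1.

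Ndufv2, an iron-sulfur subunit of the tip, did not share this pattern. It had 3420, 3593, 3605, 3466 and 3510 normalised counts in AAV8-irisin mice. It had 3495, 3445, 3448, 3471 and 3485 normalised counts in AAV8-GFP mice. The AAV8-GFP mice lay within the range of the AAV8-irisin mice, and the log2 difference was 0.0205, with a 95% interval of -0.0445 to 0.0856.

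**Figure D3:**
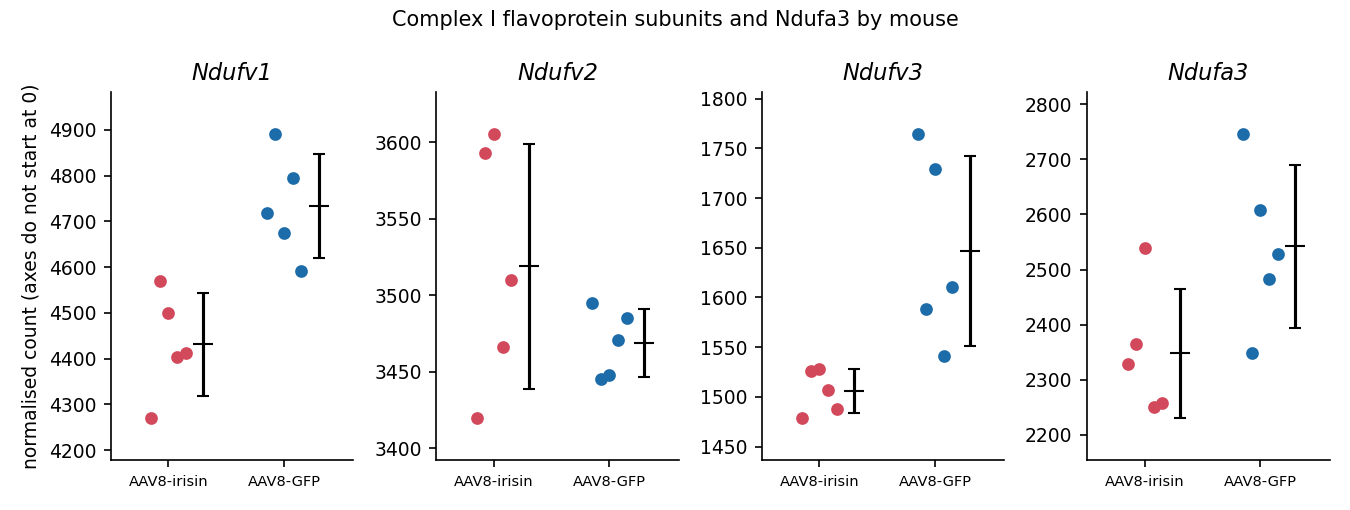
Normalised counts of Ndufv1, Ndufv2, Ndufv3 and Ndufa3 in each AAV8-irisin mouse (left in each panel) and each AAV8-GFP mouse (right), with the mean and SD beside the points; the vertical axes do not start at 0. The groups do not overlap for Ndufv1 and Ndufv3, and overlap for Ndufv2 and Ndufa3.

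Ndufa3, a small accessory subunit of the membrane arm at chr7:3617373-3620327 on the plus strand, was the other subunit under an unadjusted p of 0.05. It had 2328, 2364, 2539, 2251 and 2258 normalised counts in AAV8-irisin mice. It had 2745, 2348, 2608, 2482 and 2528 normalised counts in AAV8-GFP mice. The groups overlapped, with AAV8-irisin mice 2 and 3 above AAV8-GFP mouse 2. The log2 difference was -0.1142 ± 0.0476 (SE), with an unadjusted p of 0.0309 and an adjusted p of 0.942 in limma. An exon of Ndufa3 overlaps one of Tfpt on the opposite strand, and the counting was not stated to use strand.

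The accessory genes Ndufc1 and Ndufa7 followed with log2 differences of -0.0959 and -0.0937. Ndufc1 had 877 to 971 normalised counts in AAV8-irisin and 952 to 1077 in AAV8-GFP, and these ranges overlapped. For Ndufa7, 4 AAV8-irisin mice were below the lowest AAV8-GFP mouse, and AAV8-irisin mouse 3, at 1511, was above 4 of the 5 AAV8-GFP mice. Ndufs1, the largest iron-sulfur subunit of the core, had the highest positive value of complex I, 0.0482 with a 95% interval of -0.0402 to 0.1367. It had 4734, 4923, 4573, 4996 and 4805 normalised counts in AAV8-irisin mice. It had 4244, 4761, 4686, 4911 and 4654 normalised counts in AAV8-GFP mice. AAV8-GFP mouse 1 was the lowest of all 10, and without it the difference of Ndufs1 was 0.0156. The core genes Ndufs3, Ndufs7 and Ndufs8 had log2 differences of 0.0003, -0.043 and -0.0246.

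Complex II, which passes electrons from succinate and is also an enzyme of the tricarboxylic acid cycle, had a positive median of 0.0249, and 3 of its 4 genes were higher in AAV8-irisin. The median was 0.0111 without AAV8-irisin mouse 3 and 0.0121 without AAV8-GFP mouse 1. Sdha, the flavoprotein, had 14409, 13951, 13104, 14242 and 13267 normalised counts in AAV8-irisin mice. It had 12350, 13734, 13255, 13778 and 13893 normalised counts in AAV8-GFP mice. The groups overlapped, AAV8-GFP mouse 1 was lowest, and the log2 difference was 0.042 with a 95% interval of -0.0423 to 0.1262. It was 0.0128 without that mouse. Sdhb, the iron-sulfur subunit, averaged 3231 ± 75.8 normalised counts in AAV8-irisin and 3147 ± 61.8 in AAV8-GFP (SD, n = 5 each), a log2 difference of 0.038. The membrane anchors Sdhc and Sdhd had log2 differences of -0.0126 and 0.0119. In AAV8-GFP mouse 1 the mean deviation of the complex II genes was -0.0357. It was 0.1093 for complex I, 0.1167 for complex III, 0.1033 for complex IV and 0.142 for ATP synthase. The complex II genes have median annotated transcripts of 1142 to 2900 bases. Over the 25 subunits with transcripts of 1000 bases or more, the mean deviation in this mouse was 0.0411. The part of transcript length in this contrast was not tested.

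Complex III moves electrons from ubiquinol to cytochrome c. Its 3 longer subunits had positive log2 differences, 0.0107 for the core protein Uqcrc1, 0.0271 for the core protein Uqcrc2 and 0.0291 for the Rieske iron-sulfur protein Uqcrfs1. The 5 small subunits Uqcr10, Uqcr11, Uqcrb, Uqcrh and Uqcrq had negative ones, between -0.082 and -0.0459. The median of the 8 was -0.0504, and -0.0108 without AAV8-GFP mouse 1. Uqcr11, the most negative, had 2245, 2338, 2480, 2224 and 2178 normalised counts in AAV8-irisin mice. It had 2709, 2333, 2420, 2342 and 2339 normalised counts in AAV8-GFP mice. AAV8-GFP mouse 1 stood above all others, the groups overlapped, and the log2 difference was -0.042 without it.

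Complex IV reduces oxygen to water. Lower means in AAV8-irisin were found for 11 of its 17 genes, and the median log2 difference was -0.0236. It was -0.0476 without AAV8-irisin mouse 3 and -0.0012 without AAV8-GFP mouse 1. Cox8a and Cox4i1, the ubiquitous forms of subunits 8 and 4, had the largest negative differences among the well-expressed genes, -0.081 and -0.0726. Cox4i1 had 11026, 11718, 12289, 10774 and 10840 normalised counts in AAV8-irisin mice. It had 13437, 11115, 12071, 11322 and 11683 normalised counts in AAV8-GFP mice. The groups overlapped, with AAV8-GFP mouse 1 highest and AAV8-irisin mouse 3 next, and the difference of Cox4i1 was -0.0287 without AAV8-GFP mouse 1. Cox5a and Cox5b, which bind to the mitochondrially encoded core, had log2 differences of -0.0236 and -0.0547. Ndufa4, at 0.0099, Cox7c, at 0.001, and Cox6b1, at 0.0011, were near 0.

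ATP synthase had a median log2 difference of -0.0409, with 13 of 17 genes lower in AAV8-irisin, and -0.004 without AAV8-GFP mouse 1. The catalytic beta subunit Atp5b, the most abundant gene of the set, had 34036, 35411, 34816, 32653 and 34253 normalised counts in AAV8-irisin mice. It had 34969, 33399, 33462, 32826 and 34302 normalised counts in AAV8-GFP mice. The values overlapped throughout, and the log2 difference was 0.0186 with a 95% interval of -0.0448 to 0.082. The alpha subunit Atp5a1 had a log2 difference of -0.0203, and the gamma subunit Atp5c1, the central rotor shaft, 0.0399.

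The most negative ATP synthase gene was Atp5j2, the f subunit of the membrane part. It had 2421, 2548, 2724, 2257 and 2374 normalised counts in AAV8-irisin mice. It had 3126, 2481, 2583, 2548 and 2596 normalised counts in AAV8-GFP mice. AAV8-GFP mouse 1 alone was above all AAV8-irisin mice, and the log2 difference was -0.1114 with that mouse and -0.0528 without it. In this mouse all 17 ATP synthase genes were above their 10-mouse mean, while in AAV8-irisin mice 4, 1 and 5 only 1, 2 and 2 of them were.

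To compare genes, levels were taken per kilobase of transcript, with the median length of each gene's annotated coding transcripts. The lengths of the transcripts present in the hippocampus were not measured. The lowest subunit was Cox4i2, with 42.3 normalised counts in AAV8-irisin and 41.8 in AAV8-GFP. The highest was Atp5b, with 17867 in AAV8-irisin and 17637 in AAV8-GFP. The medians over both groups were 2579 for complex I, 2188 for complex II, 4664 for complex III, 4820 for complex IV and 4996 for ATP synthase. Cox8a and Cox4i1 followed Atp5b, with 15004 and 15006 normalised counts per kilobase in AAV8-irisin and 15877 and 15795 in AAV8-GFP. Within complex I, Ndufb9 and Ndufa3 were the highest and Ndufb2 the lowest on this scale. The rank of Ndufb2 rests on a median annotated length of 2413 bases. In counts it averaged 1608 over all mice, above Ndufb4 at 788.

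**Figure D4:**
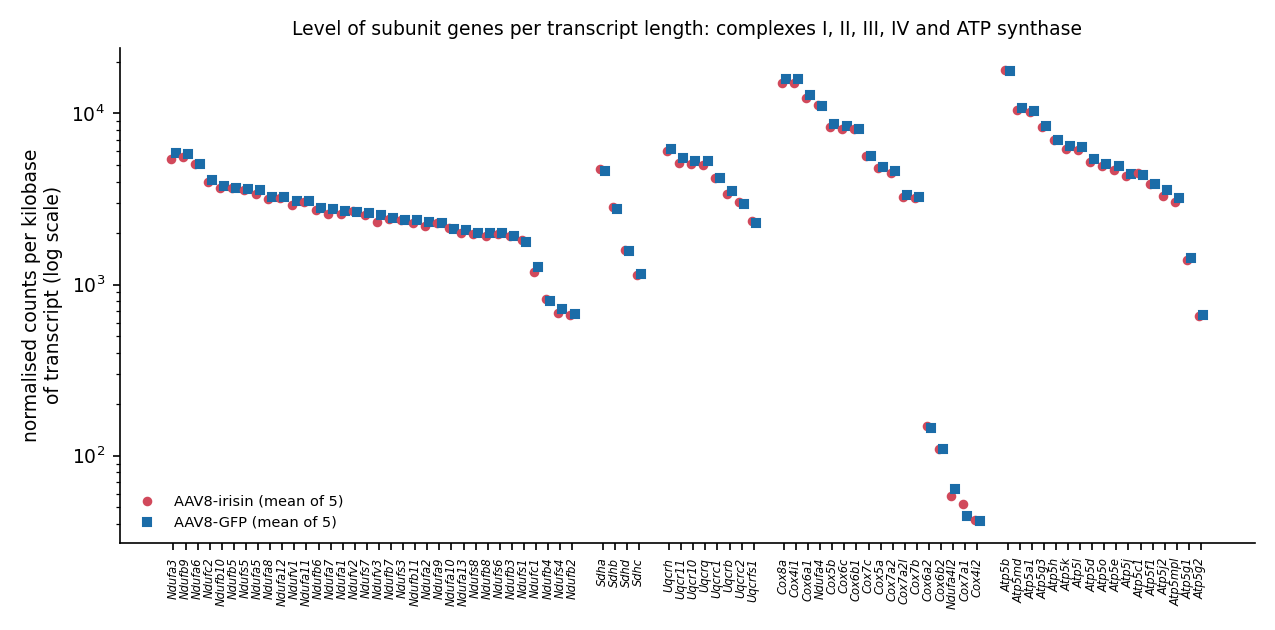
Normalised counts per kilobase of transcript (log scale) for 80 of the 81 subunit genes, as the mean of the 5 AAV8-irisin mice (circle, left) and of the 5 AAV8-GFP mice (square, right), by complex from left to right. The 5 low genes of complex IV are the tissue-restricted forms Cox6a2, Cox6b2, Ndufa4l2, Cox7a1 and Cox4i2.

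Several subunits exist in forms made by separate genes, and the hippocampus used the common form of each in both groups. Shares were taken within a family per kilobase. Cox4i2, a form known from lung, made up 0.281% ± 0.0324 of subunit 4 in AAV8-irisin and 0.264% ± 0.0473 in AAV8-GFP (SD, n = 5 each). The heart and muscle form Cox6a2 made up 1.21% ± 0.274 of subunit 6a in AAV8-irisin and 1.13% ± 0.21 in AAV8-GFP, and the testis form Cox6b2 made up 1.34% ± 0.108 of subunit 6b in AAV8-irisin and 1.35% ± 0.137 in AAV8-GFP. The group means of each of these shares differed by less than their SDs.

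Cox7a1, the heart and muscle form of subunit 7a, gave the most positive value of all 81 genes at a very low level. It had 22.1, 33.5, 22.2, 18.8 and 18.7 normalised counts in AAV8-irisin mice. It had 19, 24.5, 14.1, 17.6 and 22.8 normalised counts in AAV8-GFP mice. AAV8-irisin mouse 2 stood above the rest and the other 9 overlapped, with a log2 difference of 0.2162 ± 0.2193 (SE) and a 95% interval of -0.2539 to 0.6864. It was 0.0781 without AAV8-irisin mouse 2 and 0.1106 without AAV8-GFP mouse 3. Of 6 muscle and heart genes, 4 passed the filter, Acta1, Myh6, Myh7 and Tnnt2, and Actc1 and Ckm stayed at or below 4.45 normalised counts in AAV8-irisin mice and 8.96 in AAV8-GFP mice. The 4 that passed summed to 473 to 631 normalised counts in AAV8-irisin mice and 508 to 761 in AAV8-GFP mice, and their part in the Cox7a1 values was not tested.

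Subunit c, which forms the rotating ring of ATP synthase, is made from 3 genes with the same mature protein. Atp5g3 supplied 80.3% ± 1.23 of their transcripts per kilobase in AAV8-irisin and 80.0% ± 1.3 in AAV8-GFP (SD, n = 5 each). Atp5g1 supplied 13.3% ± 0.371 in AAV8-irisin and 13.7% ± 0.325 in AAV8-GFP. These shares rest on median annotated lengths of 2676 bases for Atp5g1, 718 for Atp5g3 and 586 for Atp5g2. In counts, Atp5g1 averaged 3708 in AAV8-irisin and 3841 in AAV8-GFP, and Atp5g3 averaged 5998 and 6043. Atp5g2 varied most between mice, with 315, 456, 322, 463 and 375 normalised counts in AAV8-irisin mice and 488, 515, 327, 353 and 271 in AAV8-GFP mice. Its values overlapped throughout, and its log2 difference was 0.0045. The proteins differ in their import sequences, but the genes are close copies in part, so reads could be divided between them in the counting.

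Many promoters of respiratory genes hold letters known to be bound by nuclear respiratory factor 1 (NRF1), a transcription factor that couples them to mitochondrial biogenesis. RefSeq promoters (GRCm38.p6) from 250 bases before to 50 after a start were found for 65 of the 81 genes and searched on both strands. The NRF1 core GCGCNTGCG was found for 24 of the 65 (36.9%), against 13.0% of 12969 tested genes with a promoter. By complex it was found for 9 of 31 genes of complex I, 2 of 3 of complex II, 3 of 5 of complex III, 1 of 12 of complex IV and 9 of 14 of ATP synthase. The following matches, 1 in each of 5 genes of complexes I, II, IV and ATP synthase, are shown 5′ to 3′ on the gene's strand with the core in capitals, on either strand, because the same letters recur in different complexes.
Ndufa8 (complex I, chr2:36049348-36049380, minus strand): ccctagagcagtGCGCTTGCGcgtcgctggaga
Ndufb10 (complex I, chr17:24724429-24724461, minus strand): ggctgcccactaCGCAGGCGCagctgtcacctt
Sdha (complex II, chr13:74350274-74350306, minus strand): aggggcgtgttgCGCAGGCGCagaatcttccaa
Cox6a1 (complex IV, chr5:115349054-115349086, minus strand): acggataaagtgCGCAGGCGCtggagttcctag
Atp5k (ATP synthase, chr5:108434429-108434461, minus strand): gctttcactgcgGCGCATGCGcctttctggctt

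Genes with and without the core were set side by side. The 24 genes with the NRF1 core had a median log2 difference of -0.0209, with 17 lower in AAV8-irisin, and the 41 genes without it had -0.0307, with 30 lower. Letters known for the estrogen-related receptors, AAGGTCA, were found for 8 of the 65 genes (12.3%), against 4.13% of tested genes. Those of YY1, AAGATGGCG, were found for 7 (10.8%), against 2.93%. Those of the ETS factors, CCGGAAGT, were found for 5 (7.69%), against 7.58%. None of the 4 sets of letters was found in these windows for Ndufv1, Ndufv3 or Ndufa3. No motif contains another, genes rather than matches were counted, and a match describes letters only.

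The low values of AAV8-irisin mice 4 and 5 and the high values of AAV8-GFP mouse 1 lay mostly in short transcripts. Over the 56 subunit genes with a median annotated transcript under 1000 bases, the mean deviation was -0.0725 in AAV8-irisin mouse 4, -0.0574 in AAV8-irisin mouse 5 and 0.1385 in AAV8-GFP mouse 1. Over the 25 longer ones it was -0.0329 and -0.0148 in the AAV8-irisin mice and 0.0411 in AAV8-GFP mouse 1. Short genes outside the set also had low values in AAV8-irisin mice 4 and 5, with mean deviations of -0.0472 and -0.0597. In AAV8-irisin mouse 1 the short subunit genes had a mean deviation of -0.0464. That of the other short genes was 0.0, but their median deviation was -0.0256, and 39.8% of them were above their own mean. The cytosolic ribosomal protein genes had a mean deviation of -0.0535 in AAV8-irisin mouse 1, with 12.5% above the mean. AAV8-GFP mouse 1 was high for short genes outside the set, with a mean deviation of 0.0978 over 1074 other tested genes under 1000 bases and -0.0135 over 13934 longer ones. The 80 cytosolic ribosomal protein genes, which are also short, had a mean deviation of 0.1553 there, with 78 above the mean. The part of transcript length in the group difference was not tested, and the split by length was chosen after the values were seen.

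**Figure D5:**
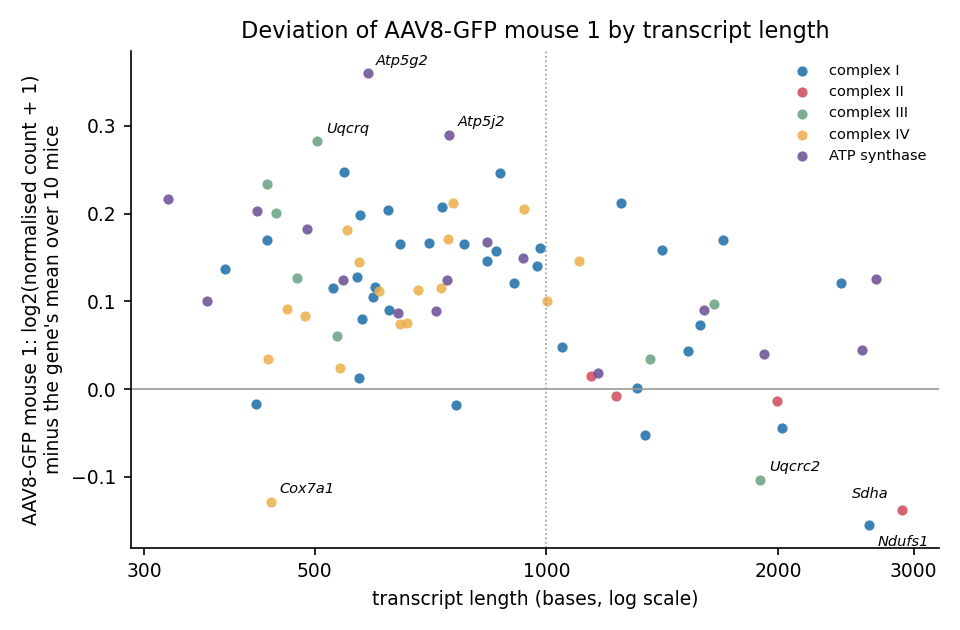
Deviation of AAV8-GFP mouse 1 from the 10-mouse mean, in log2(normalised count + 1), against transcript length in bases (log scale) for the 81 subunit genes, coloured by complex; the dotted line marks 1000 bases. Of the 56 genes left of the line 53 lie above 0, and the long Sdha, Ndufs1 and Uqcrc2 lie below it.

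The 13 mitochondrially encoded subunits, the partners of the nuclear ones in complexes I, III, IV and ATP synthase, did not vary between mice in the same way. Their mean deviation was highest in AAV8-GFP mouse 3, at 0.2719 with all 13 above the mean, where the 81 nuclear genes were at 0.0011. In AAV8-GFP mice 1, 2, 4 and 5 it was -0.1034, -0.0605, -0.0395 and 0.0042. In AAV8-irisin mice 1 to 5 it was -0.0127, -0.014, 0.0336, -0.0522 and -0.0274. AAV8-GFP mouse 3 alone was above all AAV8-irisin mice, and the group means include it. Between the groups, lower means in AAV8-irisin were found for 11 of the 13, the median log2 difference was -0.034, and none passed the test in limma. A difference without AAV8-GFP mouse 3 is not given for these 13 genes. The one of smallest p, mt-Co2, averaged 172184 ± 6752 normalised counts in AAV8-irisin and 179035 ± 15003 in AAV8-GFP (SD, n = 5 each). In AAV8-GFP mouse 3 all 7 astrocyte, all 7 microglia and all 6 endothelial markers were also above their means, by 0.2079, 0.2846 and 0.2774 on average, and the 7 oligodendrocyte markers averaged -0.3279. The part of these cell types in the mitochondrial transcripts was not tested.

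Genes that build or surround the complexes were also without a called difference. Of 15 complex I assembly factors, 11 were lower in AAV8-irisin, and the median log2 difference was -0.0217. Of those of complexes II and III, 8 of 10 were lower, with a median of -0.0696. Uqcc3, which helps assemble complex III, had 389, 366, 402, 373 and 353 normalised counts in AAV8-irisin mice and 433, 410, 437, 394 and 426 in AAV8-GFP mice. Only AAV8-irisin mouse 3 and AAV8-GFP mouse 4 overlapped, and the log2 difference was -0.1579 ± 0.0608 (SE), with an unadjusted p of 0.0211 and an adjusted p of 0.942 in limma. Of the 22 complex IV assembly factors 13 were lower and 9 higher, with a median of -0.0125 and a range of -0.1854 to 1.1844. The lowest, Coa4, had 152 ± 7.07 normalised counts in AAV8-irisin and 173 ± 9.2 in AAV8-GFP (SD, n = 5 each). Its log2 difference was -0.1854 ± 0.0798 (SE), with an unadjusted p of 0.0357 and an adjusted p of 0.942 in limma. The 6 tested ATP synthase assembly factors and inhibitors were evenly split, with a median of 0.0059.

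The tricarboxylic acid cycle, which supplies the electrons, varied least within groups of all the lists, with a median coefficient of variation of 2.41%. Higher means in AAV8-irisin were found for 12 of its 16 genes, at a median log2 difference of 0.01. Idh3a, the catalytic subunit of the NAD-linked isocitrate dehydrogenase, had a log2 difference of 0.036. Of 13 mitochondrial carriers and outer membrane genes 9 were lower, at a median of -0.0108. The 8 respiratory chain genes that the symbol rule does not reach, such as the cytochromes c1 and c, were 4 higher and 4 lower, with a median of -0.0027. Ndufb1-ps, the gene left out by its suffix, had 1021, 1130, 1149, 1017 and 1039 normalised counts in AAV8-irisin mice and 1224, 1009, 1072, 1024 and 1003 in AAV8-GFP mice, and again AAV8-GFP mouse 1 was highest.

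The 10 regulators of mitochondrial biogenesis divided into 6 higher and 4 lower, at a median log2 difference of 0.0325. Tfam, the factor that packages and transcribes mitochondrial DNA, had 1099, 829, 876, 960 and 908 normalised counts in AAV8-irisin mice and 1079, 1144, 1065, 1081 and 1215 in AAV8-GFP mice. AAV8-irisin mouse 1 lay among the AAV8-GFP mice and the other 4 lay below them, with a log2 difference of -0.2623 ± 0.0697 (SE), an unadjusted p of 0.00208 and an adjusted p of 0.942 in limma.

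Markers of other cell types and of dissected neighbours varied between the mice as well. Of 10 neuron markers, 6 were lower in AAV8-irisin, at a median of -0.0296, and their summed level was 232883 to 239102 normalised counts in AAV8-irisin mice and 229417 to 242497 in AAV8-GFP mice. All 7 microglia markers were lower, at a median of -0.0845, 6 of 7 astrocyte markers were, with -0.0437, and 4 of 6 endothelial ones, with -0.0431. AAV8-GFP mouse 3 was highest for these 3 lists, with mean deviations of 0.2846, 0.2079 and 0.2774. The next AAV8-GFP mouse, mouse 5, had 0.0702, 0.0474 and 0.033. All 7 oligodendrocyte markers were higher, at a median of 0.1014. Their mean deviation was -0.1916 and -0.3279 in AAV8-GFP mice 2 and 3, and 0.0714, 0.1076 and 0.0912 in AAV8-GFP mice 1, 4 and 5. Marker differences without these mice are not given. The 5 red cell genes were lower, with a median of -0.6532 and a summed level of 1669 to 3211 in AAV8-irisin mice and 1586 to 4502 in AAV8-GFP mice. The 5 tested choroid plexus genes were higher, with a median of 0.4557, and Ttr had 1528 normalised counts in AAV8-irisin mouse 4 and at most 162 in every other mouse. None of these genes passed the adjusted threshold in limma, and the part of cell composition in the subunit values was not tested.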

How the data were processed

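Per the labels' protocols, messenger RNA of each hippocampus was enriched on oligo(dT) beads, fragmented and made into NEBNext Ultra libraries. The submitters' processing notes name bcl2fastq 2.17 and the build mm10. The sources used here give no aligner, counter, annotation or use of strand. The authors deposited a signal per gene, which the table's name calls DESeq2 normalised counts. Within 0.1 reads, 49.5% to 72.1% of low values were whole multiples of the most frequent low value, so whole reads were not recovered and no count test or counting interval is given.

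The 17556 genes that reached 10 in 5 or more libraries were tested on log2(value + 1) with limma 3.58.1 in R 4.3.3 (trend, two-sided, Benjamini-Hochberg), with group as the only factor. This scale understates differences of low genes. The fit was tested on simulated data. Each title names its own mouse, so the p-values rest on the spread among animals. Transcript lengths and positions are from GENCODE M21 (mm10), with 1 subunit found by a RefSeq synonym. Exons of 5 subunits overlap another annotated gene on their own strand and those of 27 on the opposite strand, which leaves their values uncertain. Per-mouse deviations, shares and motif counts were computed with Python 3.11.15.

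The members and gene lists were chosen with earlier results of these data known. Named were role genes of each complex, the smallest p in each direction per complex, the 5 smallest p of all subunits, genes whose groups do not overlap and the lowest and highest mean. Other genes named are the smallest p in each direction per list, beside marker genes used as checks, and subunits that count among 5 or fewer. Some genes that this rule names are not reported here. Alternatives covered the pseudocount, filter, scaling, variance model, array weights, a block on mouse number and leaving out each mouse.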

Additional observations from a re-analysis of the deposited data

Results flagged for a closer look

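In groups of 5 mice, the highest or lowest mouse was set against the others by Dixon's ratio of its gap to the group's range, for the named subunits and for the mean deviations of the set and its complexes. Of 92 groups, 9 stood out. Chance alone flags about 1 in 20 independent groups. These groups share mice and subunits and are not independent, so the count cannot be judged by that rate.

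In 3 of the 9 it was an AAV8-irisin mouse. Mouse 1 had 136 normalised counts of Cox6a2, where the next had 95.2. Mouse 2 had 33.5 of Cox7a1, where the next had 22.2. Mouse 3 had 3363 of Sdhb, where the next had 3227.

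In the other 6 the mouse was AAV8-GFP mouse 1. It had 4116 normalised counts of Atp5g1, where the next AAV8-GFP mouse had 3822, 3126 of Atp5j2, where the next had 2596, and 2709 of Uqcr11, where the next had 2420. Its mean deviation was 0.1085 over the 81 subunits, 0.1167 over complex III and 0.142 over ATP synthase on the log2 scale.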

How the results depend on the processing

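None of the subunits passed the adjusted threshold in limma under any of the 19 alternatives in which it was tested. Cox4i2, Cox6b2 and Cox7a1 were tested in 18, since a filter at 50 leaves them out. Over all genes tested, 0 passed in each except without a filter on low values, where 1 passed, which is not a subunit. The members' median log2 difference stayed negative, from -0.0564 without AAV8-irisin mouse 3 to -0.0037 without AAV8-GFP mouse 1, and was -0.018 with array weights, in which AAV8-GFP mouse 1 had the lowest weight (0.346), -0.0344 after quantile normalisation and -0.0285 with a replicate block. It also moved by over 1.5 times without AAV8-irisin mouse 4, to -0.0189, without AAV8-irisin mouse 5, to -0.0183, and without AAV8-GFP mouse 2, to -0.0477. Leaving out 1 mouse gave medians of -0.0591 to -0.0037 for complex I, 0.0111 to 0.0351 for complex II, -0.0613 to -0.0108 for complex III, -0.0476 to -0.0012 for complex IV and -0.0608 to -0.004 for ATP synthase. Leaving out a mouse moved the number of subunits with a lower mean between 45 and 67, and quantile normalisation gave 62. Of the 81 subunits, 47 kept their sign in every alternative in which they were tested, 38 lower and 9 higher in AAV8-irisin (Cox7a1 among the 9, in 18 alternatives), and 34 turned in at least 1. Subunits lower at an unadjusted p under 0.05 numbered 7 without AAV8-irisin mouse 3 and 4 without AAV8-GFP mouse 2, against 3 in the reported fit. They numbered 2, without Ndufa3, in limma without trend and without AAV8-irisin mouse 1, 4 or 5 or AAV8-GFP mouse 1 or 3, and the p of Ndufa3 ranged from 0.00931 to 0.0752. For Ndufv1 the unadjusted p ranged from 0.00517 to 0.031 and for Ndufv3 from 0.00531 to 0.0349 over the alternatives. Mice with the same number did not deviate together (correlations of -0.089 to 0.03), so the block pairs no mice, and it called 0 genes. The planned count test was not run because whole reads were not recovered. The cause of these shifts was not tested.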
